A study of Mus musculus with 21 samples.

Results

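Tnfrsf4, Tnfrsf9, Tnfrsf18, Cd27, Tnfrsf1b and Fas encode 6 receptors of the tumour necrosis factor (TNF) receptor family that CD8 T cells can use, better known by their protein names OX40, 4-1BB, GITR, CD27, TNFR2 and FAS. They were taken by name from the 17516 gene symbols of each count table, and all 6 were present in all 21 tables. The 21 single-cell RNA-seq libraries hold 106456 cells of mouse OT1 origin, a line of mice whose CD8 T cells carry 1 transgenic receptor for an ovalbumin peptide. Naive cells formed 1 library (day 0). The other libraries came from cells activated with beads coated with antibodies to CD3 and CD28 and kept without added cytokine (days 3 and 5, 1 library each) or with IL-2, IL-2v or IL-15 at 5 or 50 IU/mL (days 3, 5 and 10, 18 libraries). The labels call IL-2 wild type and name IL-2v as a mutant IL-2bg without describing it further. All groups but the naive cells share the beads, and each group is 1 library with no replicate, of cells whose number of donor mice the labels do not give. Differences below are therefore differences between libraries, and no p-value was computed.

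Receptors of this family are membrane proteins with cysteine-rich repeats outside the cell, and they signal when trimeric ligands cluster them. OX40, 4-1BB, GITR, CD27 and TNFR2 bind TRAF adaptors and switch on NF-kB, which supports survival and division of T cells after antigen contact. FAS carries a death domain and recruits FADD and caspase 8. OX40, 4-1BB and GITR are known as receptors that appear on T cells after activation, whereas CD27 is already present on naive and memory T cells and is lost from strongly differentiated effector cells.

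On the mouse genome (build GRCm38, GENCODE vM21 annotation), 4 of the 6 genes lie on chromosome 4. Tnfrsf4 (chr4:156013843-156016612, plus strand) and Tnfrsf18 (chr4:156026164-156028895, plus strand) are direct neighbours with 9551 bases between them. Tnfrsf9 is at chr4:150914562-150946102 on the plus strand and Tnfrsf1b at chr4:145213463-145246870 on the minus strand. Cd27 is at chr6:125232622-125237010 on the minus strand, and Fas at chr19:34290666-34327772 on the plus strand. An antisense gene, Gm16008, overlaps 27.2% of the exonic bases of Tnfrsf18. Whether counting used the strand is not given in the sources used here, so it is not known whether Tnfrsf18 counts include reads of Gm16008. Mir8113 lies within Cd27 on the same strand and overlaps 5.54% of its exonic bases.

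The start regions of Tnfrsf9, Cd27 and Fas are shown because Tnfrsf9 had the widest range of the 6 genes, Cd27 ran opposite to it over the libraries, and Fas ran with Cd27. Each is 250 bases before to 50 bases after a start site in RefSeq (build GRCm38.p6), written in the direction of the gene, with matches to 3 motifs in capitals: the NF-kB consensus, the STAT motif TTCNNNGAA and the AP-1 motif TGANTCA, each searched on both strands.
Tnfrsf9 (second of 2 start sites, chr4:150927749-150928048, plus strand): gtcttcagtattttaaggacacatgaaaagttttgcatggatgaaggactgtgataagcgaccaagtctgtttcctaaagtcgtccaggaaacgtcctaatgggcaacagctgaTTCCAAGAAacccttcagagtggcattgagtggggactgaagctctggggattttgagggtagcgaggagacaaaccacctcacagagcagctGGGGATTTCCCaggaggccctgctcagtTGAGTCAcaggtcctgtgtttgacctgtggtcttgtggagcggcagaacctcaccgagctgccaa
Cd27 (chr6:125236978-125237277, minus strand): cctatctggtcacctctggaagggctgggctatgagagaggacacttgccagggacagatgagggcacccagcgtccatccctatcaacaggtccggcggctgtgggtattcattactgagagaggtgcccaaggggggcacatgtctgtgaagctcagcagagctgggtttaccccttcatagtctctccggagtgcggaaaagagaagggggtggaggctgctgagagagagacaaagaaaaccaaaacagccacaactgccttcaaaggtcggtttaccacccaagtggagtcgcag
Fas (chr19:34290409-34290708, plus strand): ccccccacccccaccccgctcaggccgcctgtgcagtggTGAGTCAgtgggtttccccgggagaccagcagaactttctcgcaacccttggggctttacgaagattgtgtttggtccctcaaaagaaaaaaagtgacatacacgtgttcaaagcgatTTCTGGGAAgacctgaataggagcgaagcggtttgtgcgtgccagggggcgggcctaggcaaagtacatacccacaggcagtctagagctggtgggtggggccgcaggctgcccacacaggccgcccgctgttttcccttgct
The Tnfrsf9 window held a STAT match, TTCCAAGAA, at position -136 from the start site, an AP-1 match, TGAGTCA, at -15, and 2 overlapping NF-kB matches at -43 and -42 that share 9 of their 10 letters. The Fas window held the STAT match TTCTGGGAA at -93 and the AP-1 match TGAGTCA at -211, and the Cd27 window held none of the 3 motifs. Of the other start regions, that of Tnfrsf18 had the STAT match TTCACAGAA at -99 and that of Tnfrsf1b the STAT match TTCCCGGAA at -181, while the Tnfrsf4 window and the first Tnfrsf9 window had none. Among all 32851 start regions of the same length, 8.46% held the NF-kB consensus, 8.30% the STAT motif and 7.81% the AP-1 motif. A match describes letters in a window and not binding.

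Libraries held 3250 to 7105 cells and 10589950 to 32648496 unique molecular identifiers (UMIs, tags that mark captured RNA molecules), with a median of 3016 to 5065 UMIs per cell. Levels are given as CPM, the UMIs of a gene per 1000000 UMIs of the library, with exact Poisson intervals (95%) that cover counting error only. Cd3d was found in 93.0% to 99.5% of cells and Cd8b1 in 54.5% to 92.0%, while Foxp3 reached 0.147% of cells at most. Of the natural killer markers, Ncr1 was at 0 in 20 libraries, but Klrb1c was found in 13.0% of the cells of IL-2v at 50 IU/mL on day 10, 8.71% of IL-2 at 50 IU/mL on day 10 and 6.49% of IL-2 at 5 IU/mL on day 10. Cells with an Mki67 or Top2a UMI, here called cycling, made up 3.01% (naive) to 86.9% (IL-2v at 50 IU/mL on day 3). The treatment labels conflict with the titles in 6 libraries: the 3 titled IL-2 at 50 IU/mL name interleukin-3 and the 3 titled IL-15 at 50 IU/mL name interleukin-16. Titles were followed, and comparisons over several pairs are also given without these libraries where that changes the call of a receptor or ligand named below and pairs remain.

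**Figure D1:**
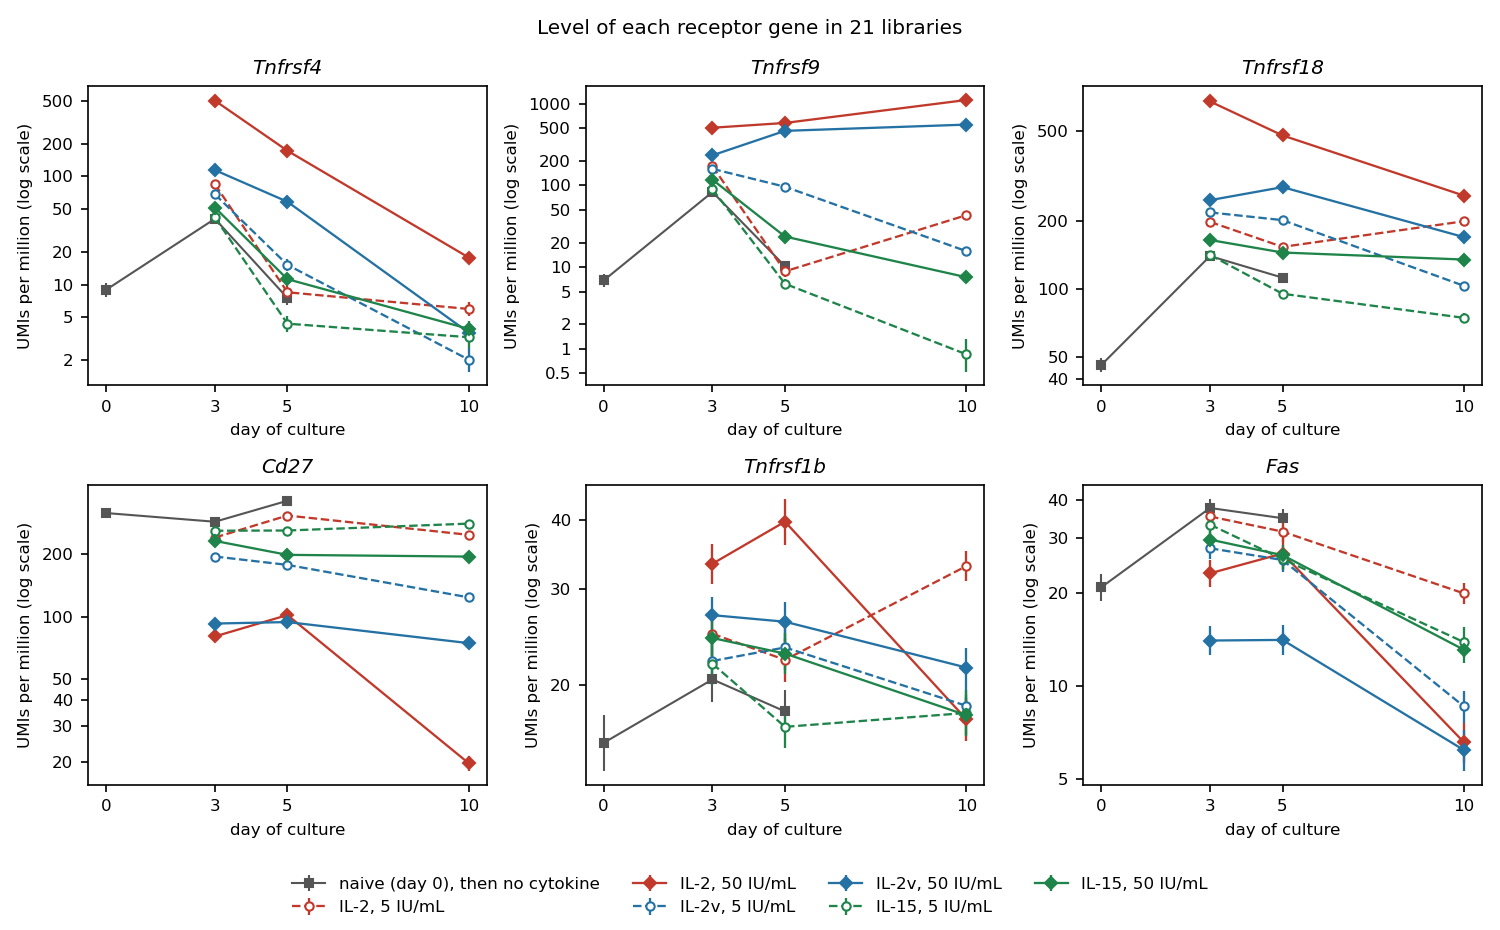
Level of each receptor gene (CPM, log axis) against the day of culture. Each point is 1 library with its exact Poisson interval (95%), grey squares are naive cells and cells without cytokine, colours, fills and line types give cytokine and dose, and lines join libraries of equal treatment. Tnfrsf4, Tnfrsf9 and Tnfrsf18 were highest with IL-2 at 50 IU/mL at every day, and Cd27 and Fas were low with IL-2 or IL-2v at 50 IU/mL on day 10.

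In the first 3 days after bead activation without added cytokine, the inducible receptors became more abundant and Cd27 differed little. Tnfrsf9 was at 6.88 CPM in naive cells and 83.2 CPM at day 3, a log2 difference of 3.42. Tnfrsf4 was at 8.93 and 40.5 CPM (log2 difference 2.06) and Tnfrsf18 at 46.2 and 140.0 CPM (1.58). Log2 differences are between log2(CPM + 1) values here and below, which understates changes of low genes. Fas (20.8 and 37.7 CPM), Tnfrsf1b (15.7 and 20.5 CPM) and Cd27 (313 and 285 CPM) differed by less than 2-fold, although Fas passed that limit in cells without an Mki67 or Top2a UMI (log2 difference 1.18). With a gene called where 1 pair of libraries differed by at least 2-fold and at least 20 CPM was reached in either, 3 of 6 members were called higher and 0 lower, against 11.1% of the 6171 genes tested called higher and 8.31% called lower. The median log2 difference was 1.20 over the 6 genes and -0.11 over all genes tested.

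Without cytokine, Tnfrsf9 and Tnfrsf4 were again near their naive levels by day 5. Tnfrsf9 stood at 10.3 CPM and Tnfrsf4 at 7.52 CPM, log2 differences of -2.90 and -2.28 from day 3, while Tnfrsf18 was at 112 CPM and Cd27 at 359 CPM, its highest level in the 21 libraries. This made 2 members called lower and 0 higher, with 9.47% of all genes tested called lower and 3.61% higher. The 2 libraries differ also in cycling cells, 60.0% at day 3 and 13.8% at day 5, and both genes were also called lower in cells without an Mki67 or Top2a UMI.

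At day 3, Tnfrsf4 was graded by cytokine and dose. Tnfrsf4, whose product OX40 binds OX40 ligand on antigen-presenting cells, was at 40.5 CPM without cytokine, 84.3 CPM with IL-2 at 5 IU/mL and 499 CPM with IL-2 at 50 IU/mL. It was at 68.1 and 114 CPM with IL-2v at 5 and 50 IU/mL, and at 41.6 and 51.4 CPM with IL-15. IL-2 at 50 IU/mL (interval 489 to 510 CPM) thus stood above the 7 other day 3 and naive libraries, and the 5 IU/mL IL-15 library overlapped the library without cytokine within counting error. The log2 difference from no cytokine was 3.59 with IL-2 at 50 IU/mL and 1.47 with IL-2v at 50 IU/mL.

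Tnfrsf9, the gene of 4-1BB, followed the same order at day 3. It was at 83.2 CPM without cytokine, 172 and 509 CPM with IL-2 at 5 and 50 IU/mL, 160 and 234 CPM with IL-2v, and 89.9 and 118 CPM with IL-15. Tnfrsf18, the gene of GITR, was at 140.0 CPM without cytokine, 198 and 674 CPM with IL-2, 218 and 247 CPM with IL-2v, and 142 and 165 CPM with IL-15. Each of the 3 genes was highest in the library with IL-2 at 50 IU/mL, and IL-2v at 50 IU/mL came next in all 3.

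Cd27 ran the other way at day 3. It was at 285 CPM without cytokine, 239 and 80.3 CPM with IL-2 at 5 and 50 IU/mL, 194 and 92.5 CPM with IL-2v, and 258 and 230.3 CPM with IL-15. The 2 libraries with IL-2 or IL-2v at 50 IU/mL stood apart from the other 5 cytokine and control libraries of that day, at log2 differences of -1.81 and -1.61. Fas was lowest with IL-2v at 50 IU/mL (14.0 CPM, against 37.7 CPM without cytokine, log2 difference -1.36). Tnfrsf1b, the gene of TNFR2, kept to a narrow range of 20.5 to 33.3 CPM.

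The counts of called members at day 3 against no cytokine were as follows. With IL-2 at 50 IU/mL, 3 members were called higher and 1 lower, against 6.45% and 2.74% of all genes tested, and the median log2 difference was 1.47 over the members and 0.19 over all genes tested. With IL-2v at 50 IU/mL, 2 were called higher and 2 lower, against 7.83% and 1.75%. With IL-2 at 5 IU/mL, 2 were called higher and 0 lower, against 0.142% and 0.106% of genes, which is 8 and 6 genes. Those 2 calls, of Tnfrsf4 (log2 difference 1.04) and Tnfrsf9 (1.04), lie at the 2-fold limit, and both are lost under 3 other scalings of the libraries, with log2 differences of 0.95 for both under TMM scaling. No member was called with IL-2v at 5 IU/mL (0.211% of genes higher, 0.0704% lower), IL-15 at 5 IU/mL (0.142% and 0.285%) or IL-15 at 50 IU/mL (0.819% and 0.261%). These 6 comparisons share the same control library.

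At day 5, with Tnfrsf4 and Tnfrsf9 low in the control, the cytokine libraries lay further apart. Tnfrsf9 was at 10.3 CPM without cytokine, 8.88 and 582 CPM with IL-2 at 5 and 50 IU/mL, 96.4 and 466 CPM with IL-2v, and 6.26 and 23.7 CPM with IL-15. Tnfrsf4 was at 7.52 CPM without cytokine, 8.48 and 172 CPM with IL-2, 15.2 and 58.1 CPM with IL-2v, and 4.35 and 11.2 CPM with IL-15. At 5 IU/mL, only IL-2v, among the 3 cytokines, held Tnfrsf9 more than 2-fold above the control (log2 difference 3.11), and IL-2 at that dose overlapped the control within counting error.

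Tnfrsf18 kept to a narrower range at day 5. It was at 112 CPM without cytokine, 154 and 477 CPM with IL-2 at 5 and 50 IU/mL, 202 and 282 CPM with IL-2v, and 95.4 and 145 CPM with IL-15. Cd27 was at 359 CPM without cytokine, 305 and 102 CPM with IL-2, 177 and 94.0 CPM with IL-2v, and 258 and 197 CPM with IL-15. All 6 cytokine libraries lay below the control in Cd27, whereas for Tnfrsf18 the library with IL-15 at 5 IU/mL was the only cytokine library below it. Tnfrsf1b reached its highest level of the series with IL-2 at 50 IU/mL (39.8 CPM, interval 36.0 to 43.7 CPM, against 17.9 CPM without cytokine), and Fas was again lowest with IL-2v at 50 IU/mL (14.1 against 34.9 CPM).

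Against no cytokine at day 5, IL-2 at 50 IU/mL had 4 members called higher (Tnfrsf4, Tnfrsf9, Tnfrsf18 and Tnfrsf1b) and 1 lower (Cd27), with 16.5% of all genes tested called higher and 7.54% lower. The median log2 difference was 1.59 over the members and 0.11 over all genes tested. Tnfrsf1b was not called there under TMM scaling (log2 difference 0.96). IL-2v at 50 IU/mL had 3 called higher and 2 lower (Cd27 and Fas), with 21.1% and 5.53% of genes. There Tnfrsf18 was not called under TMM scaling (0.98), nor Fas in cells without an Mki67 or Top2a UMI (-0.94). IL-2v at 5 IU/mL had 1 of its 5 tested members higher (Tnfrsf9) and 1 lower (Cd27, log2 difference -1.02, and -0.85 in cells without an Mki67 or Top2a UMI), with 9.75% and 2.62% of genes. IL-15 at 50 IU/mL had 1 of 5 higher (Tnfrsf9, log2 difference 1.13, and 0.94 in those cells) and 0 lower, with 5.82% and 1.90% of genes. None of the 4 members that passed the expression limit was called with IL-2 at 5 IU/mL (2.14% of genes higher, 0.360% lower), and none of 3 with IL-15 at 5 IU/mL (1.42% and 0.321%). The 6 comparisons of day 5 again share 1 control library.

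**Figure D2:**
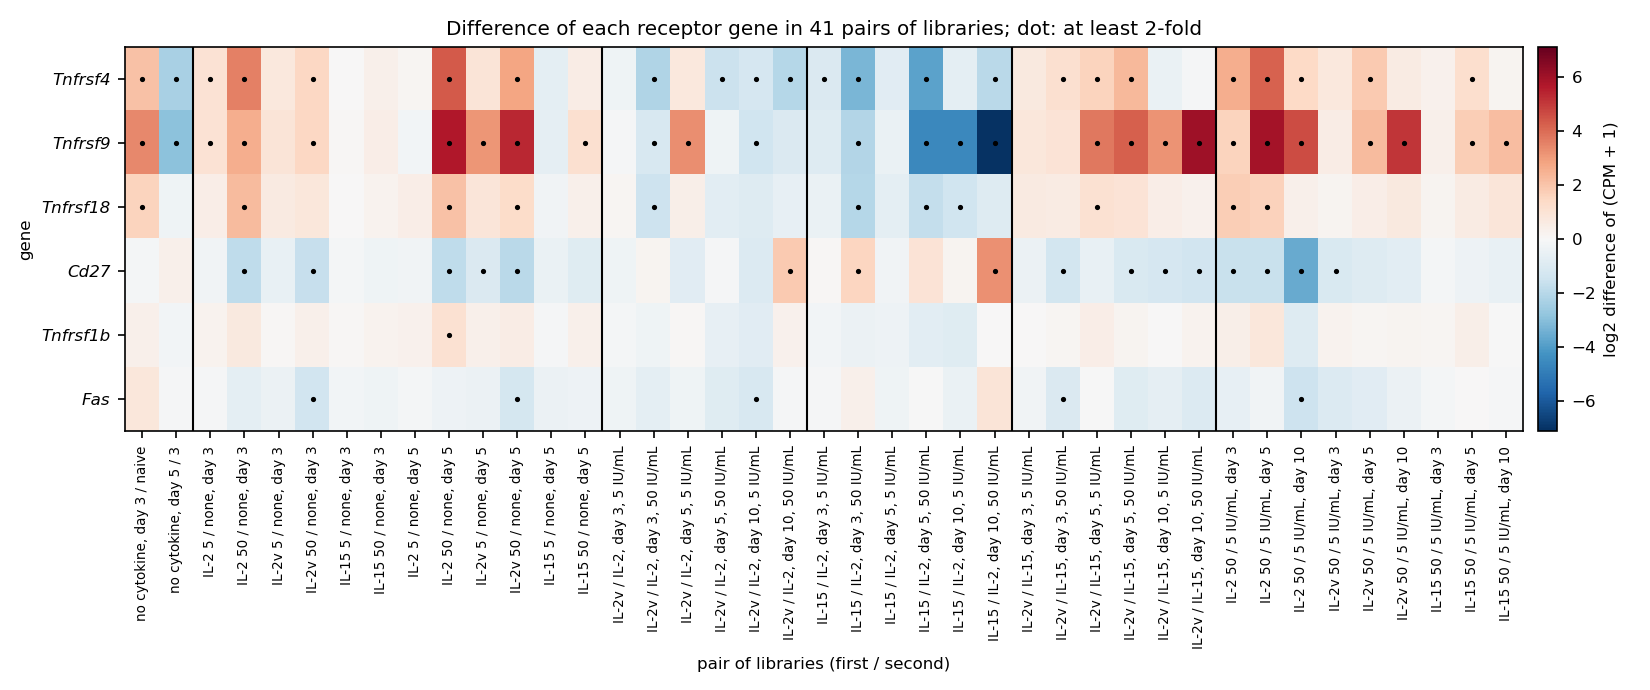
Differences of log2(CPM + 1) between pairs of libraries (columns) for the 6 receptor genes (rows). Red is higher and blue lower in the first library named, and dots mark at least 2-fold. Tnfrsf9 is lower with IL-15 than with IL-2 in all 6 matched pairs, and Cd27 is lower with IL-2v than with IL-15 in all 6.

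On day 10 Tnfrsf9 was highest of all in the series with IL-2 at 50 IU/mL. It was at 43.3 and 1112 CPM with IL-2 at 5 and 50 IU/mL, 15.7 and 556 CPM with IL-2v, and 0.858 and 7.53 CPM with IL-15. Tnfrsf4 was by then at 5.95 and 17.7 CPM with IL-2, 2.02 and 3.59 CPM with IL-2v, and 3.26 and 3.89 CPM with IL-15. The highest Tnfrsf9 level, 1296 times the lowest, thus came on day 10 of the treatment that had its highest Tnfrsf4 level on day 3. Tnfrsf18 was at 199 and 259 CPM with IL-2, 104 and 169.8 CPM with IL-2v, and 74.7 and 135 CPM with IL-15. Both day 10 libraries with the most Tnfrsf9 also had the highest shares of cells with a Klrb1c UMI (8.71% and 13.0%), while Ncr1 reached 0.0157% of cells at most in any library, and the part of Klrb1c-positive cells in the result was not tested.

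Cd27 was at its lowest level, 19.8 CPM, with IL-2 at 50 IU/mL on day 10. The other day 10 libraries had 246 CPM (IL-2 at 5 IU/mL), 124 and 74.5 CPM (IL-2v at 5 and 50 IU/mL), and 279 and 194 CPM (IL-15 at 5 and 50 IU/mL). Fas was at 19.9 and 6.56 CPM with IL-2, 8.58 and 6.19 CPM with IL-2v, and 13.9 and 13.1 CPM with IL-15. The library with IL-2 at 50 IU/mL therefore had the highest Tnfrsf9 and the lowest Cd27 of all 21.

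Over time, with 6 pairs that match in cytokine and dose, genes were called where all pairs had the same sign and the median difference was at least 2-fold. From day 3 to day 5, Tnfrsf4 was lower in 6 of 6 pairs (median log2 difference -2.10, from -3.17 to -0.96) and was the 1 member called lower, with 0 called higher, against 2.22% and 0.829% of genes. From day 5 to day 10, Tnfrsf4 (median -1.87) and Fas (-1.02) were lower in all 6 pairs, giving 2 members lower and 0 higher against 1.62% and 0.0705% of genes. Without the IL-2v pairs the median of Tnfrsf4 was -0.88 and that of Fas -0.91, and neither was called. Tnfrsf9 had no common direction over time, being higher at day 10 than at day 5 in 3 of 6 pairs. Without the 6 libraries with conflicting treatment labels, Fas lost its call (median -0.96) and Tnfrsf4 kept it (-1.44), and Fas also lost it under 3 other scalings (-0.86 under TMM).

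Tnfrsf9 was higher at the higher dose with all 3 cytokines. Between 50 and 5 IU/mL on the same day, its median log2 difference over days 3, 5 and 10 came to 4.65 in IL-2 libraries, to 2.26 in those with IL-2v and to 1.77 where IL-15 was used. In the IL-2 pairs, Tnfrsf4 (2.55) and Tnfrsf18 (1.63) were also higher and Cd27 (-1.58) lower at 50 IU/mL in all 3 pairs, giving 3 members called higher and 1 lower against 4.29% and 2.70% of genes (median over the members 1.02, over all genes 0.030). With IL-2v, 1 member was called higher and 0 lower against 2.38% and 0.626% of genes, and Cd27 missed the limit (median -0.90, lower in 3 of 3 pairs) but passed it under TMM scaling (-1.08). With IL-15, 1 was called higher and 0 lower against 0.869% and 0.181%, and that call was lost without day 3, where Tnfrsf9 no longer reached the 20 CPM needed to be tested. The difference in response to dose between cytokines was not tested, and each IL-2 and IL-15 pair includes a library with conflicting labels.

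Matched for day and dose, IL-15 libraries had less of the 3 inducible receptors than IL-2 libraries. In 6 of 6 pairs Tnfrsf9 (median log2 difference -3.33, from -7.03 to -0.45), Tnfrsf4 (-1.47, from -3.82 to -0.71) and Tnfrsf18 (-1.17, from -2.02 to -0.48) were lower with IL-15. That made 3 members called lower and 0 higher, against 1.70% and 0.490% of all genes tested. The median over the 6 members was -0.79, and over all genes tested it was -0.013. Cd27 was higher with IL-15 in 5 of 6 pairs (median 0.56) and was not called. In the 3 pairs at 5 IU/mL, which leave out the libraries with conflicting labels, these 3 receptors were again lower in every pair but their medians were -0.93 for Tnfrsf9, -0.83 for Tnfrsf4 and -0.68 for Tnfrsf18, and no member was called. The median of Cd27 in those pairs was 0.11, from -0.24 to 0.18. Over all 6 pairs, Tnfrsf18 also lost its call with totals without ribosomal protein and mitochondrial genes (-0.96), and Tnfrsf4 with a pseudocount of 10 CPM (-0.93).

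Between IL-2v and IL-2, 0 members were called higher and 0 lower (1.04% and 0.274% of genes). Tnfrsf4 was lower with IL-2v in 5 of 6 pairs (median -1.37), and at 5 IU/mL on day 5 it was higher (log2 difference 0.77), as was Tnfrsf9 (3.30). Fas was lower with IL-2v in 6 of 6 pairs, with a median of -0.51 below the limit. On day 10 at 50 IU/mL, Cd27 was higher with IL-2v than with IL-2 (74.5 and 19.8 CPM, log2 difference 1.86). Without day 5, Tnfrsf4 (median -1.62) and Tnfrsf9 (-1.06) were called lower with IL-2v. In the 3 pairs at 5 IU/mL, without the conflicting labels, the medians were -0.30 for Tnfrsf4 (-1.20 to 0.77) and -0.11 for Tnfrsf9 (-1.41 to 3.30), neither of them called. The median of Tnfrsf18 was -0.68 over all 6 pairs and 0.14 in these 3, and that of Fas was -0.33.

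Against IL-15, Tnfrsf9 was higher (median 3.46, 6 of 6 pairs) and Cd27 lower (-1.11, 6 of 6 pairs) with IL-2v, which made 1 member called higher and 1 lower against 2.48% and 0.585% of genes. At 5 IU/mL alone, Tnfrsf9 kept its call (median 3.17), while Cd27 did not (-0.54), and Cd27 was not called either in cells without an Mki67 or Top2a UMI (-0.83) or without day 10 (-0.80). Tnfrsf18 (median 0.60) and Tnfrsf1b (0.16) were higher with IL-2v in all 6 pairs and Fas lower in all 6 (-0.75, and -0.25 at 5 IU/mL alone), without reaching the limit. Of the 6 genes, Tnfrsf1b varied least over the series, with 2.53 times between its highest and lowest library and 19 of its 20 neighbouring ranks within counting error. The corresponding ratio was 6.08 for Fas, 14.6 for Tnfrsf18, 18.1 for Cd27 and 247 for Tnfrsf4, with 17, 8, 11 and 11 of 20 neighbouring ranks overlapping, and 6 of 20 overlapped for Tnfrsf9.

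Shares of cells with a UMI ranked the libraries much as the levels did, with a largest rank gap of 1 to 5 by gene. With few UMIs per cell a share depends strongly on the level itself, so it does not tell more cells from more UMIs per cell. In cells thinned to 2000 UMIs each, which left out 0.938% to 12.1% of cells per library, Tnfrsf9 was found in 0.167% (IL-15 at 5 IU/mL on day 10) to 78.4% of cells (IL-2 at 50 IU/mL on day 10, exact Clopper-Pearson interval 77.2% to 79.5%). The median over 21 libraries was 13.5%. For Tnfrsf4 the range was 0.261% to 52.2%, for Tnfrsf18 8.99% to 69.6%, and for Cd27 4.33% to 51.8%. Tnfrsf1b was found in 3.00% to 7.56% of cells and Fas in 1.21% to 7.30%, so for these 2 genes 1 captured UMI per cell was the rule (at most 1.11 and 1.19 UMIs per cell with any, before thinning). Tnfrsf9 reached 6.93 UMIs per cell with any before thinning. Without thinning the Tnfrsf9 shares ran from 0.330% to 88.6%. The libraries held no other cell type in number from which a share owed to free RNA could be read.

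**Figure D3:**
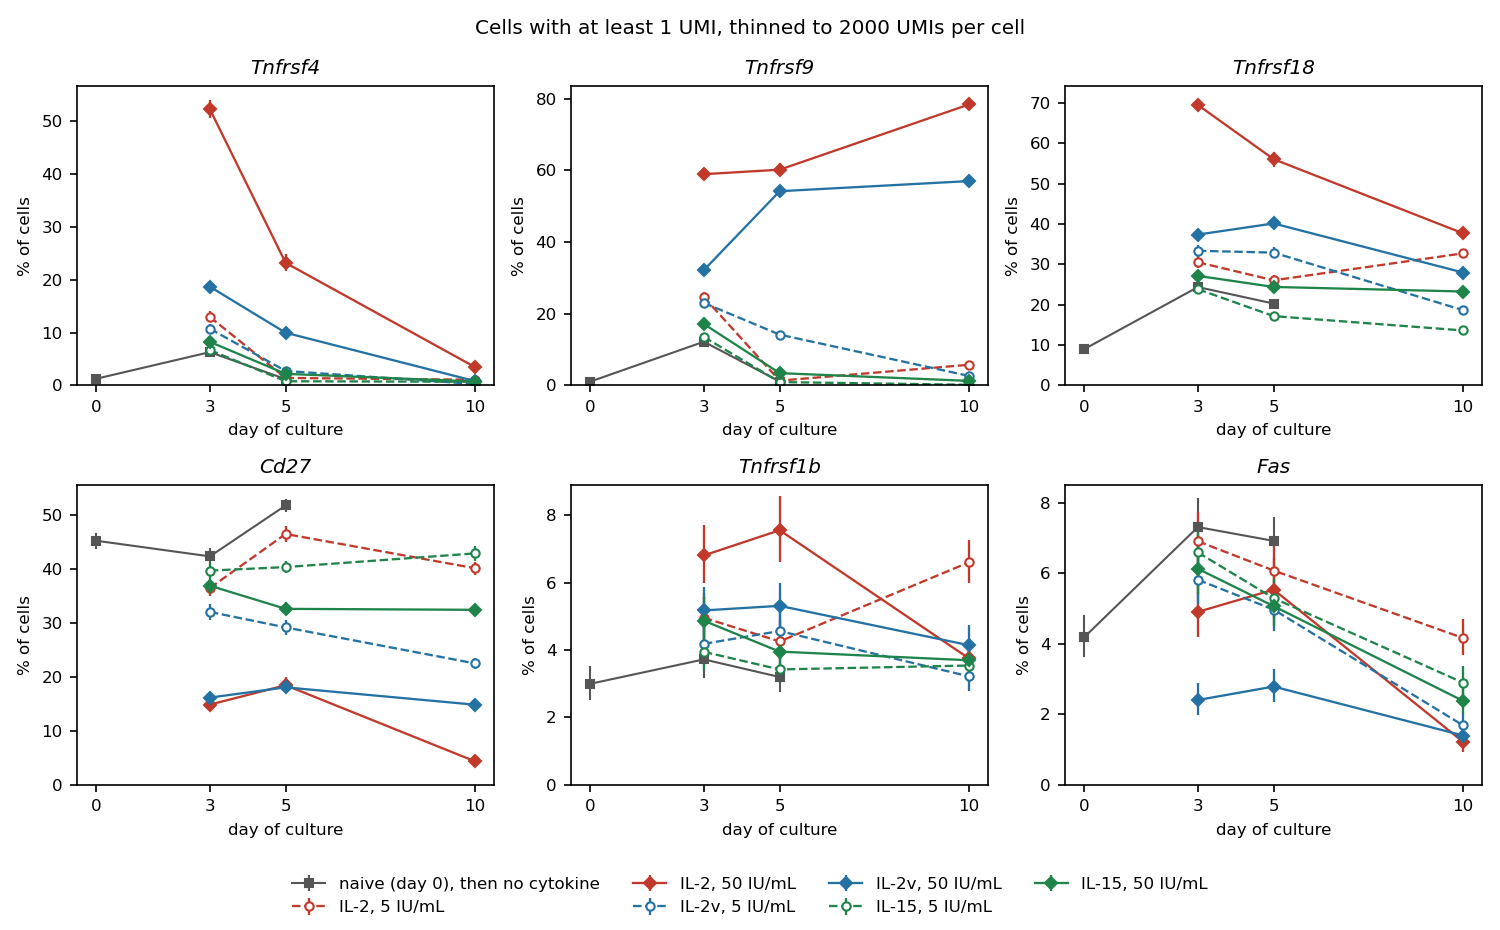
Percentage of cells with at least 1 UMI of each receptor gene after thinning to 2000 UMIs per cell, against the day of culture, with exact Clopper-Pearson intervals (95%). Symbols are as for the levels, and lines join libraries of equal treatment. The share for Tnfrsf9 reaches 78.4% with IL-2 at 50 IU/mL on day 10, and that for Tnfrsf4 is highest, at 52.2%, with the same treatment on day 3.

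The inducible receptors were found together in the same cells somewhat more often than their separate shares give. The share of thinned cells with both Tnfrsf4 and Tnfrsf9, divided by the product of their shares, had a median of 1.35 over 12 libraries and was above 1 in 11 of them. It was 1.24 for Tnfrsf4 with Tnfrsf18 (above 1 in 12 of 12 libraries) and 1.07 for Tnfrsf9 with Tnfrsf18 (14 of 15). Tnfrsf9 was found with Cd27 less often than the product, at 0.883 (above 1 in 3 of 15), and with Fas at 0.860 (1 of 12). Without thinning, cells differ in depth. The median was then 1.002 for Tnfrsf9 with Cd27 (above 1 in 9 of 18 libraries) and 0.992 with Fas (8 of 18). Thinned to 1000 UMIs, the medians were 0.876 and 0.768, so these lower joint shares were seen only in cells thinned to equal depth. With Tnfrsf1b, the thinned medians were 1.08 for Tnfrsf4 (8 of 12) and 1.06 for Tnfrsf9 (12 of 15). Only libraries in which each gene of a pair was found in at least 2% of cells were used. Doublets were not removed, and cells of 1 library are not replicates.

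With IL-2 at 50 IU/mL, 24.5% of thinned cells had UMIs of all of Tnfrsf4, Tnfrsf9 and Tnfrsf18 on day 3, 10.7% on day 5 and 1.15% on day 10. In the control without cytokine it was 0.754% on day 3. Cells with Tnfrsf9 and no Cd27 made up 75.2% in the day 10 library with IL-2 at 50 IU/mL, while cells with Cd27 and no Tnfrsf9 made up 1.17%. With IL-15 at 5 IU/mL on the same day those shares were 0.0927% and 42.8%. IL-2v at 50 IU/mL lay between, with 50.0% and 7.84%.

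Cells with a Tnfrsf9 UMI were compared with cells of the same library without one, in the 13 libraries where each class had at least 5% of thinned cells. Among the 2925 genes that reached 50 CPM in 1 of the classes, 105 were higher in every library and 57 lower in every library. The largest medians belonged to Gzmc, a granzyme gene of long-stimulated cytotoxic cells (log2 difference 1.20), Adam8 (0.94), Mt1, a metallothionein gene (0.91), Lgals3, which encodes galectin-3 (0.85) and Basp1 (0.85). The limit was set on the mean over libraries, and in the median library the first 2 were low, Gzmc at 16.6 CPM with and 5.09 CPM without a Tnfrsf9 UMI and Adam8 at 18.0 and 5.52 CPM. The lowest were Tcf7, the transcription factor gene of naive and stem-like T cells (-1.02), Dapl1 (-0.98), and the interferon-inducible genes Iigp1 (-0.75), Ifi27l2a (-0.73) and Ifi203 (-0.69). Gzmb, the granzyme B gene, was higher in 13 of 13 libraries (0.52).

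Among the other receptors, cells with a Tnfrsf9 UMI had more Tnfrsf4 in 11 of 13 libraries (median 0.56) and more Tnfrsf18 in 13 of 13 (0.27). Cd27 was lower in 11 of 13 (-0.29) and Fas in 12 of 13 (-0.36). Tnfrsf1b differed by 0.11 in the median. All of these medians are under 2-fold.

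**Figure D4:**
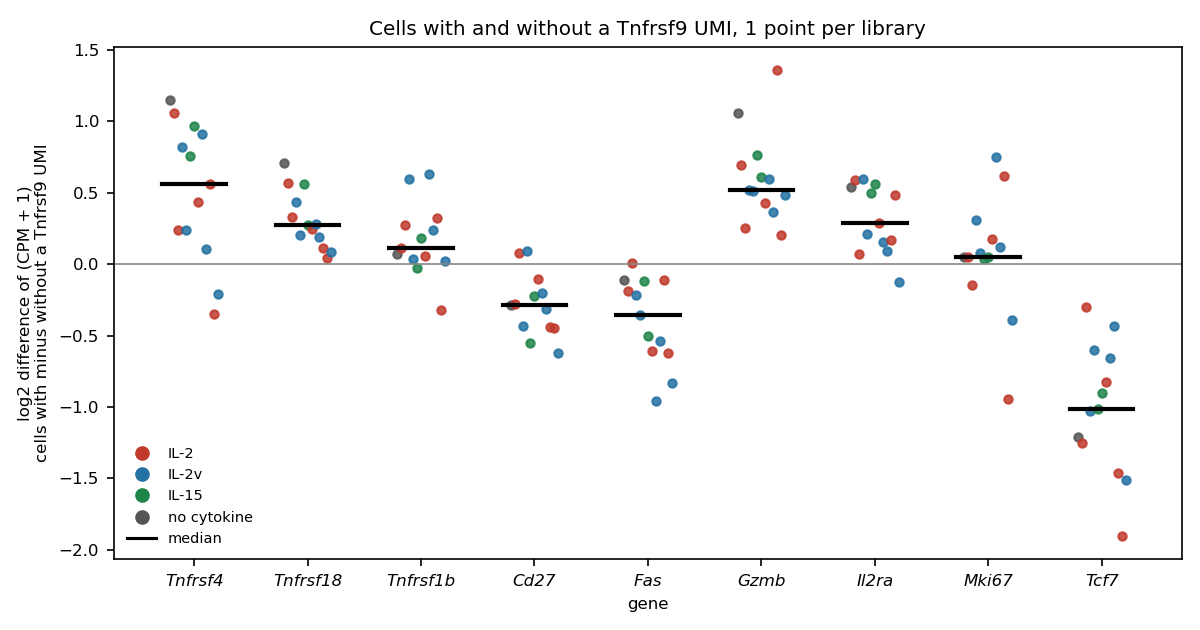
Difference of log2(CPM + 1) between thinned cells with and without a Tnfrsf9 UMI for 9 genes, 1 point per library (13 libraries), coloured by cytokine, with the median as a bar. Gzmb and Tnfrsf18 lie above 0 and Tcf7 below 0 in every library.

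A split by Cd27 gave smaller largest medians, over an unlike set of libraries. It used 20 libraries, against 13 for Tnfrsf9. Naive cells were included, and IL-2 at 50 IU/mL on day 10 (4.33% of cells with Cd27) was left out. In cells with a Cd27 UMI, 13 of 2799 genes were higher and 13 lower in all 20. The same sign is harder to reach over 20 libraries than over 13, so these counts and those of the Tnfrsf9 split are not comparable. The highest were Arl5c (0.31), BE692007 (0.22), the interferon-inducible Igtp (0.18), Lef1, a partner of Tcf7 in naive T cells (0.15), and Saraf (0.14). The lowest were Hist1h2ap, a histone gene whose reads can be split with near-identical copies (-0.46), Smc2, a condensin gene (-0.36), Ube2s (-0.25), Dut (-0.22) and Odc1 (-0.21). Smc2, Ube2s, Dut and histone genes are used in dividing cells.

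Cycling and other cells of the same library were also set side by side. Cd27 was lower in cycling cells in 19 of 21 libraries (median log2 difference -0.44) and Fas in 19 of 21 (-0.36). Tnfrsf9 was higher in cycling cells in 15 of 21 (0.31), past 2-fold in 3, of which 2 differed beyond counting error. Counting error was exceeded upward in 12 libraries and downward in 4, which were IL-2 at 5 (-0.22) and 50 IU/mL (-0.22) on day 3 and IL-2 (-0.25) and IL-2v (-0.29) at 50 IU/mL on day 10. The last 3 are among the libraries with the most Tnfrsf9. Also among those, IL-2 (0.10) and IL-2v (0.17) at 50 IU/mL on day 5 were higher in cycling cells beyond counting error. Both libraries that passed 2-fold beyond counting error had at most 37.7 CPM in either class. Tnfrsf18 was lower in 16 of 21 (-0.15). Tnfrsf4 had a median of -0.08 over all libraries, but on day 3, where all 7 libraries had at least 40.5 CPM, it was lower in cycling cells in 6 of 7 libraries (5 beyond counting error), down to -0.68 without cytokine, and higher with IL-15 at 50 IU/mL (0.22). Tnfrsf1b had a median of 0.07. The classes were set on all UMIs of a cell, so they also differ in depth.

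Across the 21 libraries, Tnfrsf9 and Tnfrsf18 ran together (Pearson r 0.81 on log2(CPM + 1), Spearman rho 0.88), as did Tnfrsf18 and Tnfrsf1b (r 0.81, rho 0.76), Tnfrsf4 and Tnfrsf18 (r 0.76, rho 0.73), Tnfrsf4 and Tnfrsf9 (r 0.69, rho 0.67) and Tnfrsf4 and Tnfrsf1b (r 0.68, rho 0.66). Tnfrsf9 ran against Cd27 (r -0.73, rho -0.78). Cd27 and Fas had an r of 0.70 (rho 0.60). Whether libraries share mice or cultures is not labelled, and these are descriptions with no test. Among the 5495 genes averaging 20 CPM or more, the pattern nearest to Cd27 was that of Tcf7 (r 0.97), followed by Ipcef1, Arl5c, Gm26740 and Ikzf3. For Tnfrsf9 the nearest were Prkcsh (0.96), Neb, Mapkapk2, Map2k3 and Avpi1, and for Tnfrsf4 they were Hbs1l (0.94), Strbp, Arl2, Mad2l2 and Lancl1.

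Tnfrsf18 was most like Crem (0.94), C1qtnf12, Srp72, Xbp1 and Bhlhe40. Fas was most like Rabgap1l (0.94), Ikzf2, Gtf2i, Hsdl2 and Trpc4ap, and Tnfrsf1b most like Sh2b1 (0.88), Eif4e3, Dcaf12, Cops2 and Gna13. Ikzf2, the Helios gene, is also a marker of regulatory T cells, and it was found in 2.44% to 42.4% of cells although Foxp3 was at most in 0.147%.

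C1qtnf12 lies on the same strand 47213 bases before Tnfrsf4, in the stretch of chromosome 4 that also holds Sdf4, which ends 232 bases before Tnfrsf4 starts. C1qtnf12 (1.08 to 84.4 CPM) and Sdf4 (152 to 688 CPM) were both highest with IL-2 at 50 IU/mL on day 3, as were Tnfrsf4 and Tnfrsf18. Sdf4 had an r of 0.91 with Tnfrsf4. B3galt6, on the opposite strand between C1qtnf12 and Sdf4, had an r of -0.31 with Tnfrsf4. These neighbours, other than C1qtnf12, were singled out after their values were seen.

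Of 12 other receptor genes of the family, 5 reached 20 CPM in at least 1 library. Tnfrsf8, the CD30 gene, was highest with IL-2 at 50 IU/mL on day 3 (35.2 CPM, against 3.10 CPM without cytokine, log2 difference 3.14), and it was at 30.0 CPM with that treatment on day 10. It was called higher at 50 than at 5 IU/mL of IL-2 (median 3.05), where each pair includes a library with conflicting labels. In both comparisons it passed the 20 CPM limit only through the libraries with IL-2 at 50 IU/mL. Tnfrsf13b, the TACI gene, was called higher upon activation (49.9 against 21.6 CPM), and Tnfrsf26 was lower upon activation (13.3 against 28.5 CPM) and higher at day 5 than at day 3 with cytokine (median 1.29). Upon activation, 1 of the 3 tested was called higher and 1 lower, against 11.1% and 8.31% of all genes tested. With IL-2 at 50 IU/mL on day 3, 1 of 2 was called higher (6.45% of genes), and with IL-2v at 50 IU/mL on day 5, 1 of 3 lower (5.53% of genes). As Tnfrsf8 was among the 2 only because of its high value there, the 1 of 2 cannot be weighed against that share. Tnfrsf26 was also called higher without cytokine at day 5 and lower at 50 than at 5 IU/mL of IL-2v.

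Ligand genes of OX40, 4-1BB, GITR and CD27 were low in these T cells, and those of GITR and CD27 were nearly absent. Tnfsf18, the GITR ligand gene, had 2 UMIs in all 21 libraries together, and Cd70, the ligand gene of CD27, had 8. Tnfsf4 (OX40 ligand) reached 1.28 CPM and Tnfsf9 (4-1BB ligand) 5.10 CPM at most, where 3 UMIs of a library correspond to 0.0919 to 0.283 CPM. Tnfsf9 had UMIs in all 21 libraries, 1005 together. Ligands of TNFR2 and FAS were present. Lta, the lymphotoxin alpha gene, was at 150.1 CPM with IL-2 at 50 IU/mL on day 3 and 69.4 CPM with IL-2v at that dose, against 7.73 CPM without cytokine (log2 differences 4.11 and 3.01). Tnf was at 27.7 and 27.9 CPM in the same libraries against 6.83 CPM.

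Fasl was highest with IL-2 at 5 IU/mL on day 10 (77.7 CPM), as were Tnf (77.9 CPM) and Tnfsf8, the CD30 ligand gene (119 CPM). Fasl (median log2 difference -1.18) and Lta (-1.63) were called lower with IL-15 than with IL-2, 2 of 5 ligands tested against 1.70% of genes. In the 3 pairs at 5 IU/mL, without the conflicting labels, Fasl was called still (median -1.27, with 1 pair at -0.01) and Lta was not (-0.50). Tnf was called higher with IL-2v than with IL-15 (median 1.40), 1 of 4 ligands against 2.48% of genes, and in the 3 pairs at 5 IU/mL it did not reach the 20 CPM needed to be tested. Fasl, Lta and Tnf were below 20 CPM in every IL-15 library, so they were tested only through the other cytokine. Ltb, the lymphotoxin beta gene, was highest in the day 5 library without cytokine. It was at 1820.1 CPM there, against 425 CPM without cytokine on day 3, and at 282 CPM with IL-2v at 50 IU/mL on day 5 (log2 difference -2.69). On day 3 it was higher with IL-2 at 50 IU/mL (492 CPM) than without cytokine.

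**Figure D5:**
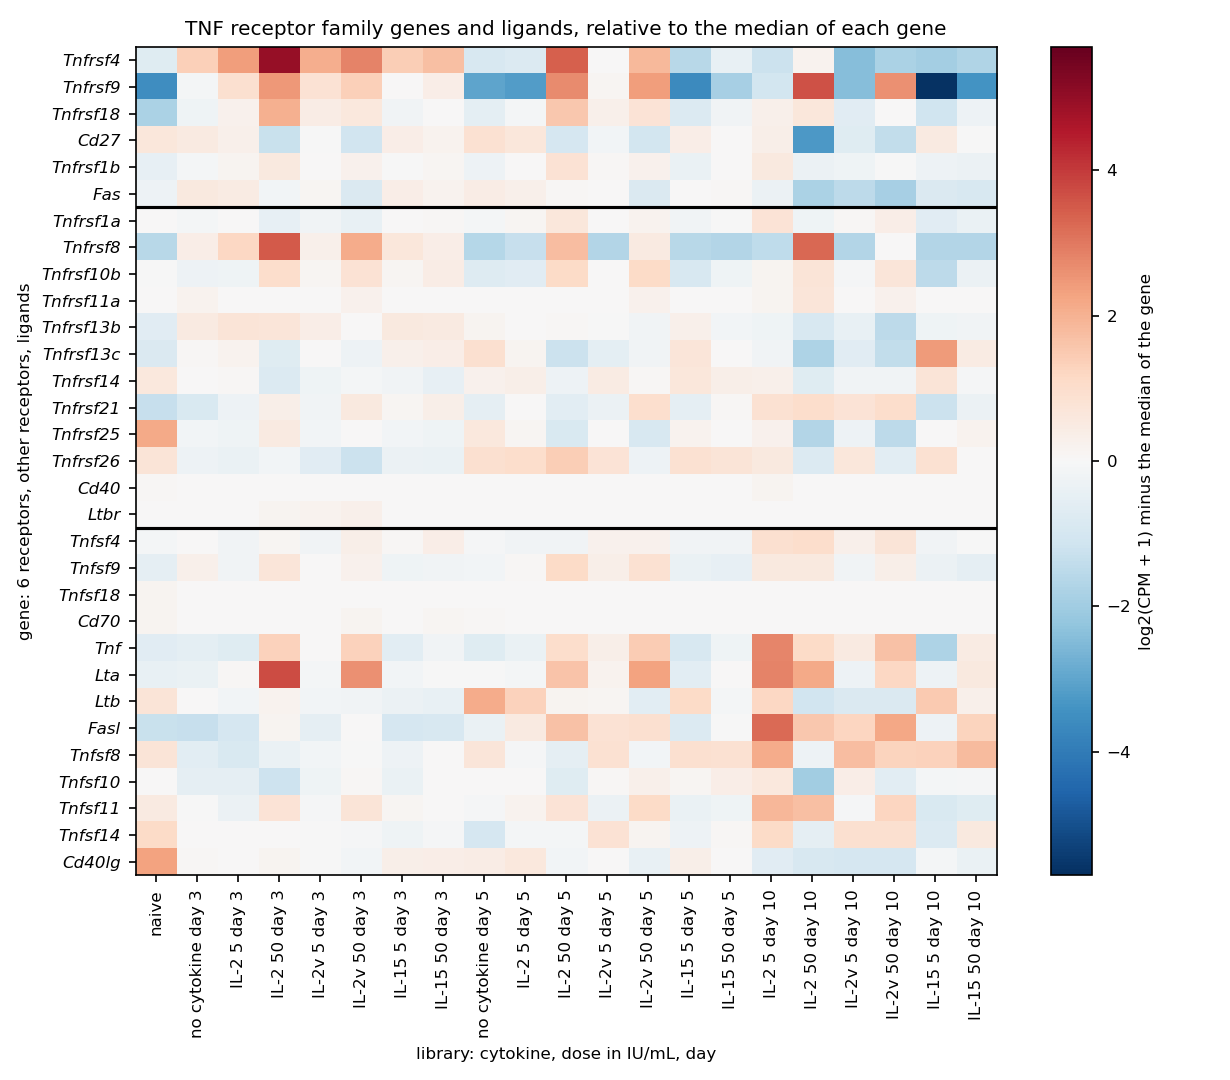
Level of the 6 receptors (top), 12 other receptors of the family (middle) and 13 ligands (bottom) in the 21 libraries, as log2(CPM + 1) minus the median of the gene over the libraries. Red is above and blue below that median. Colours compare libraries within a gene. Tnfrsf8 and Lta are above their medians with IL-2 at 50 IU/mL on day 3, as Tnfrsf4 is, and Tnfsf18 and Cd70 show almost no colour because they had almost no UMIs.

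Of 12 adaptor genes, activation called 1 higher, Siva1, whose product binds CD27 (102.6 against 25.7 CPM), and 3 lower, Traf3, Traf5 and Map3k14, the gene of the NF-kB inducing kinase, among 10 tested, against 11.1% and 8.31% of all genes. Traf1, which encodes an adaptor of 4-1BB, was at 194 CPM without cytokine on day 5 and was called lower with IL-2v at 5 (83.8 CPM) and 50 IU/mL (90.1 CPM) and with IL-15 at 50 IU/mL (88.6 CPM). Its highest level, 257 CPM, was in the day 10 library with IL-2 at 50 IU/mL, where Tnfrsf9 was highest too. Its lowest, 59.7 CPM, was with IL-2v at 50 IU/mL on day 3, where Tnfrsf9 was at 234 CPM. Whether Traf1 and Tnfrsf9 run together was not tested. Birc2, the cIAP1 gene, was lower in 2 of these comparisons, and Traf4 was higher with IL-2 at 50 IU/mL on day 3 (46.3 against 20.1 CPM).

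In the FAS death pathway, Cflar, the gene of the inhibitor c-FLIP, was called lower upon activation (55.3 against 114.8 CPM). Bid was called higher with IL-2v at 50 IU/mL on days 3 and 5 (23.5 and 21.6 CPM, against 11.1 and 7.91 CPM without cytokine). Of all genes tested, 7.83% and 21.1% were called higher there. Bid passed the 20 CPM limit only through these IL-2v libraries. With IL-15 at 50 IU/mL on day 5 it was at 18.4 CPM (log2 difference 1.12) and was not tested. Faim2 reached 0.163 CPM at most.

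Of 14 NF-kB genes, activation called 4 lower and 0 higher among 9 tested, against 8.31% and 11.1% of all genes, the largest differences being those of Nfkbiz (-1.50), Ikbkb (-1.43) and Nfkbia (-1.34). From day 3 to day 5 without cytokine, 4 of 11 were called higher and 0 lower, against 3.61% and 9.47% of genes, led by Nfkbia, which encodes the inhibitor IkB alpha (58.2 to 233 CPM), Relb (10.7 to 40.1 CPM) and Nfkbie (10.2 to 25.0 CPM). Relb and Nfkbie passed the 20 CPM limit only through that day 5 library. Against it, Relb was called lower in all 6 cytokine libraries of day 5, and Nfkbia in 4 of them. Of all genes tested, 0.321% (IL-15 at 5 IU/mL) to 7.54% (IL-2 at 50 IU/mL) were called lower. Relb was below 20 CPM in all 6, so these calls rest on its high level in the 1 shared control. Tnfaip3, the A20 gene, was higher with IL-2 at 50 IU/mL on day 5 (67.9 against 20.4 CPM). The median log2 difference of the NF-kB genes tested was 0.70 without cytokine between days 3 and 5, against -0.0016 for all genes tested. Nfkbia, Relb, Nfkb2, Rel and Nfkbie had their highest levels without cytokine on day 5. Nfkb1, the gene of the p50 precursor, had its highest, 242 CPM, with IL-2 at 50 IU/mL on day 3, as had Tnfrsf4 and Tnfrsf18. In that library Relb was at 23.5 CPM, against 10.7 CPM without cytokine. There 1 of 10 NF-kB genes tested was called higher and 0 lower, against 6.45% and 2.74% of genes. Relb passed the 20 CPM limit only through the library with IL-2. A link between these genes and the receptors was not tested.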

How the data were processed

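UMI counts per gene and cell barcode, deposited by the authors as 1 table per library (whole numbers, unnormalised), were the starting point for all 21 libraries. Per the submitters' processing notes, Cell Ranger, Seurat 3.0.2 and 4.0.1 and build mm10 were used, with no roles given, and how barcodes, doublets and strand were handled is not given in the sources used here. The extract protocol speaks of sorted tumour-infiltrating cells and the growth protocol of culture, and the libraries were treated as cultured. The growth protocol also names day 7, which was not analysed here. Replicates were not labelled, and shared barcodes numbered 1 to 19 per pair of libraries.

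Cells needed 1000 UMIs, 500 genes and no more than 10% mitochondrial UMIs (2 removed), and were summed per library and scaled to CPM. Differences used a pseudocount of 1 CPM and genes of at least 20 CPM, averaged over the pairs, in either arm. A gene was called at a log2 difference of 1 in size, with the same sign in all pairs where there were several. Shares, joint shares and cells split by a receptor UMI used cells thinned to 2000 UMIs (seed 11). The named genes were the 6 receptors, the called genes of the receptor, ligand, adaptor, death and NF-kB lists (the 3 largest where more were called), the 5 genes most correlated with each receptor, and the 5 highest and 5 lowest of same sign in the split cells. These members and lists were chosen with earlier results of these data known. Some listed genes are not reported here. The comparison procedure was tested on simulated data. Python 3.11.15 (numpy 2.4.6, scipy 1.17.1, pandas 2.3.3, matplotlib 3.10.9) and, for TMM factors, edgeR 4.0.16 in R 4.3.3 were used. Alternatives covered cell filters, scaling, pseudocount, expression limit, thinning and left-out days or cytokines.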

Additional observations from a re-analysis of the deposited data

Results flagged for a closer look

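Tnfrsf9 moved in opposite directions between days 5 and 10 with IL-2 and IL-15. With IL-2 it was higher at day 10 in both pairs, from 8.88 to 43.3 CPM at 5 IU/mL (log2 difference 2.16) and from 582 to 1112 CPM at 50 IU/mL (0.93), a median of 1.55. With IL-15 it was lower in both, from 6.26 to 0.858 CPM at 5 IU/mL (-1.97) and from 23.7 to 7.53 CPM at 50 IU/mL (-1.53), a median of -1.75. With IL-2v it was lower at 5 IU/mL (-2.54) and slightly higher at 50 IU/mL (0.25). Each difference exceeded its counting interval. The difference between the cytokines was not tested, and 4 of the 8 libraries are among those with conflicting treatment labels.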

How the results depend on the processing

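Each result was recomputed under up to 18 alternatives, changing 1 choice at a time, and no called difference reversed its sign. Of 542 recomputed counts of called members, 505 stayed within 1.5 times the value given and 37 did not, and of 542 counts over all genes 374 and 168. Leaving out cells above 2 times the median UMIs (possible doublets), or cells with markers of other lineages, and keeping all barcodes, changed no call of a member. No paired analysis was possible because the labels give no replicate numbers, every condition being 1 library. The pairs of libraries in the text match conditions, not replicates.

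With IL-2 at 5 IU/mL on day 3, the 2 higher calls became 1 at no more than 5% mitochondrial UMIs and 1 in cells without an Mki67 or Top2a UMI, and 0 with TMM scaling, totals without ribosomal protein and mitochondrial genes, median-ratio size factors or a pseudocount of 10 CPM. That pseudocount took the lower calls of IL-2v at 50 IU/mL from 2 to 1 on both days, and to 0 the lower call of IL-2v at 5 IU/mL on day 5, the higher call of IL-15 at 50 IU/mL on day 5, the higher call by dose of IL-15 and the 2 lower calls from day 5 to day 10. Cells without an Mki67 or Top2a UMI gave 0, 1 and 0 for the first 3 of the day 5 counts (IL-2v at 5 IU/mL lower, IL-2v at 50 IU/mL lower, IL-15 at 50 IU/mL higher), 0 lower for IL-2v against IL-15, and 2 higher and 1 lower by dose of IL-2v. The dose of IL-2v also gave 1 lower with each of the 3 other scalings, and 2 higher without day 3 or day 10. The mean of single-cell CPM gave 1 higher with IL-2v at 5 IU/mL on day 3. Without day 5, IL-2v against IL-2 gave 2 lower and the dose of IL-2 gave 2 lower. Without day 10, IL-2v against IL-15 gave 2 higher and 0 lower, and without day 3 the dose of IL-15 gave 0 higher. From day 5 to day 10, 1 was lower at no more than 5% mitochondrial UMIs and with each of the 3 other scalings, and 0 without IL-2v. Leaving out the libraries with conflicting labels, an alternative chosen after seeing the data, gave 0 lower for IL-15 against IL-2, 0 lower for IL-2v against IL-15 and 1 lower from day 5 to day 10. Beyond what the settings themselves change, the cause was not tested.

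Shares of cells depended on the thinning. Thinned to 1000 UMIs and without thinning, the median shares were 1.496% and 4.95% for Tnfrsf4, 7.79% and 24.3% for Tnfrsf9, 15.3% and 49.6% for Tnfrsf18, 18.4% and 57.5% for Cd27, 2.32% and 9.56% for Tnfrsf1b, and 2.51% and 8.93% for Fas. In cells without an Mki67 or Top2a UMI they were 11.8% for Tnfrsf9 and 38.7% for Cd27. Pairs of members with a median joint share above the product numbered 9 of 15, and 14 without thinning, the exception being Tnfrsf9 with Fas (0.992).

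TMM scaling shifted the median of all genes by -0.33 to 0.14 on the log2 scale. In 16 of the 22 comparisons a scaling moved the split of called genes by over 10 points, given here for the scaling that moved it most. TMM scaling moved the share of higher genes among those called from 27.6% to 38.0% (no cytokine, day 5 against day 3), 70.2% to 55.9% (IL-2 50 IU/mL at day 3), 75% to 53.9% (IL-2v 5 IU/mL at day 3), 81.8% to 59.3% (IL-2v 50 IU/mL at day 3), 68.6% to 55.1% (IL-2 50 IU/mL at day 5), 78.8% to 66.8% (IL-2v 5 IU/mL at day 5), 79.3% to 52.6% (IL-2v 50 IU/mL at day 5), 80.9% to 62.1% (IL-2v against IL-15), 79.2% to 63.9% (dose 50 against 5 IU/mL, IL-2v) and 27.2% to 43.0% (day 5 against day 3). Median-ratio size factors moved the share of higher genes among those called from 57.1% to 25% (IL-2 5 IU/mL at day 3), 33.3% to 20.8% (IL-15 5 IU/mL at day 3), 75.8% to 46.7% (IL-15 50 IU/mL at day 3) and 79.2% to 58.6% (IL-2v against IL-2). Totals without ribosomal protein and mitochondrial genes moved the share of higher genes among those called from 22.4% to 32.4% (IL-15 against IL-2) and 61.3% to 51.1% (dose 50 against 5 IU/mL, IL-2). Without the expression limit, 40 of 44 counts over all genes moved past 1.5 times, the most from 113 to 378 (IL-2 at 5 IU/mL higher on day 5), and with a pseudocount of 10 CPM 37 did, the most from 144 to 47 (IL-2v against IL-15, higher). TMM scaling moved 15, the most from 353 to 713 (IL-2v at 50 IU/mL on day 5, lower). Counting error alone was 0.06 to 0.23 on the log2 scale (median interval half-width over pairs, by gene), and limits low values such as Tnfrsf9 with IL-15 on day 10.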

Other observations

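Of the 13 ligand genes of the family, Tnf, Fasl, Tnfsf8, Tnfsf10 and Tnfsf11 were highest with IL-2 at 5 IU/mL on day 10. The others were highest in other libraries, and the share of all genes that were highest in this library was not computed. This library had 77.9 CPM of Tnf, 77.7 CPM of Fasl, 119 CPM of Tnfsf8 and 21.2 CPM of Tnfsf10, the TRAIL gene. The medians over the 21 libraries were 10.6, 7.49, 26.6 and 13.7 CPM. Tnfsf11, the RANKL gene, reached 6.52 CPM there. Its Tnfrsf9 level, 43.3 CPM, was above the 8.88 CPM of the same treatment at day 5, and Klrb1c was found in 6.49% of its cells.

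Ighm, listed as a B cell marker, was found in 11.5% to 90.3% of cells. Its lowest share was in the day 10 library with IL-2 at 50 IU/mL, which also had the lowest Cd27 (19.8 CPM) and Tcf7 at 2.38 CPM, its lowest level.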
